A study of Canis lupus familiaris with 13 samples.

Results

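The genes of sterol and fatty acid synthesis are a set of 33 listed symbols. They were taken by name from the biosynthetic route and its control proteins, with earlier results of these data known. Rows of the deposited table whose platform gene symbol was one of them were used, which gave 31 genes with 73 probe sets, out of 15115 named genes and 42924 probe sets tested. SC4MOL is an older symbol of MSMO1, and IDI1 was not analysed here. A probe set is a group of short probes that reads 1 transcript, and 23 of the 31 genes had over 1 of them. Each gene is described at its probe set of highest mean over all samples, and further probe sets follow where their sign or call is not the same.

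Canine soft tissue sarcomas, malignant tumours of connective tissue, were measured on an Affymetrix array as total RNA of untreated primary tumours. There were 5 metastatic tumours and 8 non-metastatic ones, which had stayed free of metastasis for 1 year or longer. The tumours are labelled by this outcome, and tumour subtype, grade, breed and age were not used here. The labels do not state that each tumour came from a separate dog, and each p-value reflects only how much these samples vary. By its design the study sets untreated tumours of these outcomes against each other.

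Cells make cholesterol from acetyl-CoA through mevalonate, farnesyl diphosphate and squalene, which is closed into lanosterol and then trimmed by a series of sterol enzymes. Fatty acids are built from the same acetyl-CoA, then lengthened by elongases and given double bonds by desaturases. Both routes are under the SREBP transcription factors, which the escort protein SCAP carries from the endoplasmic reticulum to the Golgi for cleavage when sterols are low, and which INSIG proteins hold back when sterols are high.

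In metastatic tumours some enzymes between squalene and the methyl-sterol steps and some fatty acid desaturases were higher. SQLE was 5.50-fold and SCD, at its brightest probe set, 4.37-fold higher by the fitted log2 difference. The non-metastatic mean of SQLE, 6.39, lay within the range read by probe sets without a target (2.63 to 7.16), so its fold is not exact. CYP51A1, NSDHL, LSS, FADS1, FADS2 and INSIG1 also had probe sets that rose, and SCAP had 1 that fell. In all 13 of the 73 probe sets rose and 1 fell (limma, adjusted p under 0.05 over all probe sets), which is 17.8% and 1.37% of the members. Over all probe sets tested 1.56% were called higher and 3.34% lower in metastatic tumours. At the chosen probe sets 5 of the 31 genes rose and 1 fell, against 1.65% higher and 3.70% lower over all named genes. Because the members were chosen with earlier results of these data known, these contrasts of shares describe the set and do not test it. The median difference of the 31 genes was 0.28 on the log2 scale, and that of all named genes was 0.05. Without metastatic replicate 1 the 14 calls became 8, and without metastatic replicate 2 or 5 or non-metastatic replicate 4 they became 9. The 6 calls among the genes became 3 without metastatic replicate 2, 4 or 5 or non-metastatic replicate 3, 4, 5 or 8. Without non-metastatic replicates 1, 3 and 4 together, a setting chosen after seeing the data, the 14 calls became 1 and the 6 became 0. Over all probe sets 207 were called in that fit. Of the 23 genes with over 1 probe set, 18 had all their probe sets on the same side of 0, and PMVK, TM7SF2, SCAP, ACACA and ELOVL5 did not.

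**Figure D1:**
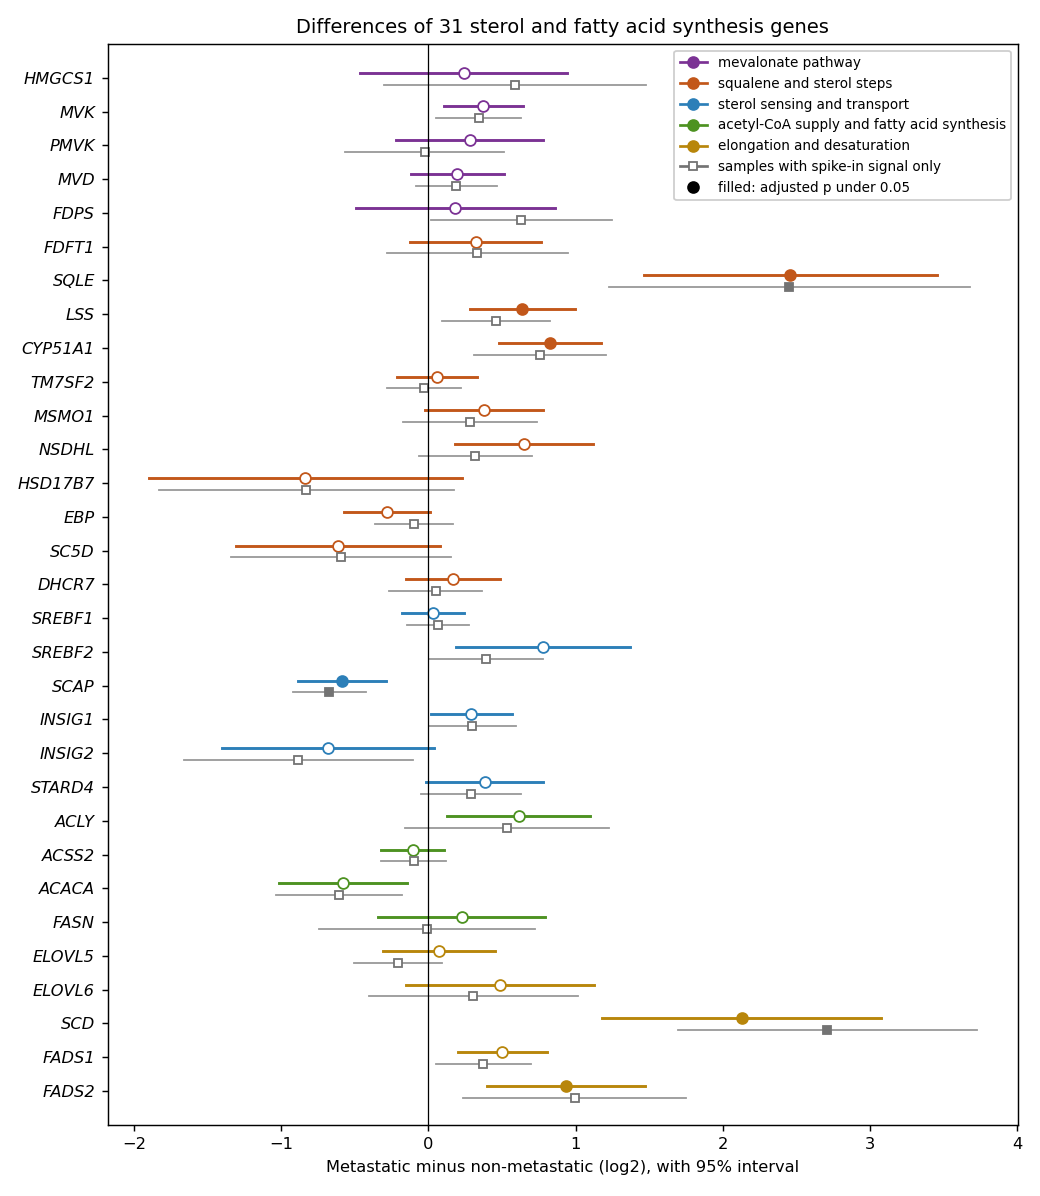
Differences between metastatic and non-metastatic tumours (log2, horizontal axis) of the 31 genes at their chosen probe sets, coloured by step, with 95% intervals from all 13 samples (circles) and from the 9 samples with spike-in signal (grey squares). Filled symbols passed the test, and SQLE at 2.46 and SCD at 2.13 lie farthest to the right.

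Sample quality moved partly with the groups. Poly-A spike-ins, bacterial transcripts added before labelling, gave signal in 9 samples (all 5 metastatic and non-metastatic replicates 5 to 8) and none in non-metastatic replicates 1, 3 and 4. In non-metastatic replicate 2 the spike-ins read 3.64 more at the 3′ end than at the 5′ end, and no other sample had a gap above 0.91. The ACTB 3′ minus 5′ value, which rises with RNA degradation, was 1.40 to 2.87 in metastatic samples, 0.39 to 0.88 in the 3 without spike-in signal and 1.23 to 3.14 in the other non-metastatic samples. Differences are therefore also given within the 9 samples with spike-in signal, 5 metastatic and 4 non-metastatic. Among the 7 non-metastatic samples that were not 3′-biased, 7 member probe sets were higher and 3 lower with spike-in signal than without (limma, adjusted p under 0.05), against 15.8% and 5.85% of all probe sets. A single called member probe set was among them, that of CYP51A1 at 6.08 below. In the samples without spike-in, probe sets for spike-ins read 2.63 to 7.16, so a level not above 7.16 is not told apart from a probe set without its target. For 10 of the 14 called probe sets the non-metastatic mean was not above this value, so the sizes of these differences are not exact. For 4 of them, those of LSS, NSDHL, INSIG1 and FADS2, neither mean was above it.

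Within the 9 samples with spike-in signal 6 member probe sets rose and 1 fell, against 0.578% higher and 2.20% lower over all probe sets. At the chosen probe sets SQLE and SCD rose and SCAP fell there, against 0.576% higher and 2.24% lower over all named genes. All 14 called probe sets kept their sign there and 7 also passed. Of the 73 member probe sets 14 were higher and 2 lower without overlap between the groups there, against 4.39% and 4.94% of all probe sets. Over all 13 samples 6 of the 73 were higher and 0 lower without overlap, against 1.18% and 1.45% of all probe sets. With the spike-in class (signal, none or 3′-biased) as a block in the fit of all 13 samples, 5 member probe sets rose and 1 fell (limma). These were SQLE at its brighter 2 probe sets, CYP51A1 at its second, NSDHL, SCD and SCAP. Over all 42924 probe sets 400 rose and 1261 fell in that fit. The classes were read from control probe sets, and the labels do not state what they stand for. Samples outside the signal class were all non-metastatic, so the block leaves the same differences as the 9 samples alone. Without non-metastatic replicate 8 none of the 73 passed among the samples with spike-in signal (limma; 20 had an unadjusted p under 0.05). Without metastatic replicate 1 or 5 the count of 7 there became 3 each, without non-metastatic replicates 5, 6 and 7 it became 1, 1 and 3.

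The tissue markers were those of a mesenchymal tumour. VIM, an intermediate filament of mesenchymal cells, ran from 12.82 to 13.86 and COL1A1, a fibrillar collagen, from 12.05 to 14.04. Of the 12 mesenchymal markers, all measured, only DCN passed (-1.29, limma adjusted p = 0.00429), and their mean level was 11.79 to 12.37 in metastatic and 11.55 to 12.43 in non-metastatic samples. Of the epidermal list, EPCAM and CDH1, general markers of epithelia, reached at most 7.14 and 5.76, while KRT1, DSP, DSG1 and KRT10 reached 8.54, 8.32, 8.26 and 8.16. Of the lipid-storing adipocyte, 10 of 12 listed markers were measured, 0 rose and CFD fell (-2.26, limma adjusted p = 0.0144), and 1 of the 10 had an unadjusted p under 0.05. Their mean level was 6.21 to 8.02 in metastatic and 6.59 to 7.72 in non-metastatic samples, with the highest in metastatic replicate 5. Only 2 of the 10, the lipid droplet genes PLIN1 and CIDEC, never exceeded 7.16, while CFD, FABP4, PPARG, LPL and ADIPOQ reached 12.75, 11.87, 9.51, 9.47 and 8.85. Of the skeletal muscle list, 11 of 12 were measured and 0 passed (2 at an unadjusted p under 0.05), but their mean level was 9.11 in metastatic replicate 5 and 6.86 to 7.34 in the other metastatic samples, against 6.56 to 7.39 in non-metastatic ones. In the lists for macrophages, lymphocytes, endothelium, epidermis and Schwann cells 0 genes passed (limma; 0, 5, 0, 1 and 1 at an unadjusted p under 0.05). The mean level of these 5 lists was 8.003 to 9.98, 6.79 to 7.03, 7.82 to 8.67, 5.97 to 6.37 and 6.68 to 7.86 in metastatic samples and 8.34 to 9.86, 6.56 to 7.18, 7.46 to 9.29, 5.93 to 7.04 and 6.85 to 7.64 in non-metastatic ones. The lists held 10, 11, 10, 10 and 9 measured genes, of which 0, 4, 0, 4 and 2 never exceeded 7.16. The part of these cell types in the results was not tested. In such bulk samples fewer cells of a type and less RNA per cell cannot be told apart.

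In the mevalonate steps no probe set passed. Of 5 genes with 11 probe sets, 0 rose and 0 fell (limma; 1 higher and 1 lower at an unadjusted p under 0.05). Over all probe sets 1.56% were higher and 3.34% lower, so a count of 0 in 11 is near these shares. The median difference of the genes was 0.24. HMGCS1, the synthase that commits acetyl units to the route, read 10.88, 10.70, 9.21, 9.30 and 9.51 in metastatic replicates 1 to 5, and 8.98 to 10.37 with a median of 9.75 in non-metastatic tumours. Replicates 1 and 2 of the metastatic group lay above all non-metastatic samples and the other 3 inside their range, so the mean difference was 0.24 with a 95% interval of -0.46 to 0.94, and 0.59 within the samples with spike-in signal (limma adjusted p = 0.437). MVK, mevalonate kinase, differed by 0.37 (interval 0.10 to 0.64, limma adjusted p = 0.0994) with 4 of 5 metastatic samples above all non-metastatic ones. MVD, which decarboxylates the diphosphate, differed by 0.20 (interval -0.12 to 0.51). Within the samples with spike-in signal MVK differed by 0.34 and MVD by 0.19.

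FDPS, which makes farnesyl diphosphate, differed by 0.18 (interval -0.49 to 0.86), and its highest value of all was 10.18 in non-metastatic replicate 1. It differed by 0.63 within the samples with spike-in signal (limma adjusted p = 0.238), while in non-metastatic samples the values with spike-in signal minus those without came to -0.97. PMVK, phosphomevalonate kinase, differed by 0.28 at its chosen probe set and by 0.14 at another, which became -0.03 and -0.07 within the samples with spike-in signal. Its remaining probe set differed by -0.85 (limma adjusted p = 0.056) and by -0.69 there. The probe sets of PMVK thus gave no single direction.

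From squalene to cholesterol 7 of 21 probe sets rose and 0 fell, against 1.56% higher and 3.34% lower over all probe sets. At their chosen probe sets 3 of 11 genes rose and 0 fell, against 1.65% higher and 3.70% lower over all named genes. FDFT1, squalene synthase, was 8.53, 8.54, 7.40, 7.34 and 8.18 in metastatic replicates 1 to 5, against 7.56 to 8.02 with a median of 7.64 in non-metastatic tumours. Metastatic replicates 1, 2 and 5 lay above the non-metastatic range and replicates 3 and 4 below it, so that the difference of 0.32 ± 0.21 (SE) did not pass (limma adjusted p = 0.347), nor did that of 0.33 within the samples with spike-in signal (adjusted p = 0.53). Its other probe set differed by 0.37 and did not pass either (limma adjusted p = 0.31).

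SQLE, squalene epoxidase, performs the step after FDFT1 and is a control point of the route. It read 8.39, 10.56, 7.33, 8.61 and 9.35 in metastatic replicates 1 to 5, and 5.40 to 7.31 with a median of 6.45 in non-metastatic tumours. SQLE rose by 2.46 ± 0.46 (SE, limma adjusted p = 0.0117). Every metastatic sample was above every non-metastatic one, though replicate 3 of the metastatic group exceeded non-metastatic replicate 2 by little. Its other probe sets rose by 2.18 ± 0.45 and 1.81 ± 0.37 (SE; limma adjusted p = 0.0179 and 0.0164), and in each of them metastatic replicate 3 fell inside the non-metastatic range. Within the samples with spike-in signal all 3 were without overlap, at 2.45, 2.19 and 1.79 (limma adjusted p = 0.0499, 0.0627 and 0.0677). All 3 calls over 13 samples were kept in each of the 13 fits without 1 sample. Without the 3 samples lacking spike-in signal, the chosen probe set differed by 2.27 and did not pass (limma adjusted p = 0.0822).

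LSS, which closes the squalene epoxide into lanosterol, was 7.12, 7.39, 6.78, 6.74 and 6.69 in metastatic replicates 1 to 5, and 5.81 to 6.70 with a median of 6.38 in non-metastatic tumours. Non-metastatic replicate 7, at 6.70, overlapped metastatic replicate 5. Neither LSS mean was above 7.16, so the size of its difference is not exact. LSS rose by 0.64 ± 0.17 (SE) and by 0.46 ± 0.16 without passing within the samples with spike-in signal (limma adjusted p = 0.0433 and 0.167). Its call held without non-metastatic replicate 2 or 7 and was lost in the other 11 fits without 1 sample, with adjusted p from 0.0313 to 0.106 over the 13 (limma).

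CYP51A1, the demethylase that acts on lanosterol, was 9.17, 9.53, 9.04, 9.59 and 10.11 in metastatic replicates 1 to 5, and lay between 8.37 and 8.81 with a median of 8.68 in non-metastatic ones. CYP51A1 rose by 0.83 ± 0.16 (SE, limma adjusted p = 0.0137). The groups did not overlap, and the non-metastatic spread was small (SD 0.14, n = 8, against 0.42, n = 5). A second probe set had a metastatic mean of 7.41 ± 0.62 (SD, n = 5) and a non-metastatic mean of 6.08 ± 0.36 (SD, n = 8), and rose by 1.33 ± 0.25 (SE, limma adjusted p = 0.0115). It also rose within the samples with spike-in signal by 1.51 ± 0.28 (SE, limma adjusted p = 0.0278), where the first differed by 0.76 (adjusted p = 0.0822). In non-metastatic samples the second probe set was lower with spike-in signal than without (-0.56, limma adjusted p = 0.0363). The third probe set, with both means under 7.16, differed by 0.54 without passing. Calls at the first and second probe sets were kept in all 13 fits without 1 sample.

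NSDHL and MSMO1 act in the removal of methyl groups from carbon 4 of the sterol. NSDHL rose at its dimmer probe set, with 6.22, 6.37, 5.61, 5.84 and 5.97 in metastatic replicates 1 to 5 against 4.89 to 5.49 with a median of 5.20 in non-metastatic tumours. The groups did not overlap, and the difference of 0.79 ± 0.14 (SE) passed over all samples and, at 0.86, within those with spike-in signal (limma adjusted p = 0.0101 and 0.0302). All values at this probe set were under 7.16, and the call was kept in all 13 fits without 1 sample. At the chosen probe set NSDHL differed by 0.65 ± 0.22 (SE, limma adjusted p = 0.1) and by 0.32 within the samples with spike-in signal. There non-metastatic samples with spike-in signal exceeded those without by 0.83 (limma adjusted p = 0.00992). MSMO1 differed by 0.38 (interval -0.02 to 0.78), by 0.28 within the samples with spike-in signal, and by 0.56 at its other probe set (limma adjusted p = 0.131).

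The remaining sterol enzymes gave no passing probe set. HSD17B7, a keto reductase of the same demethylation, differed by -0.84 (interval -1.90 to 0.23) and varied widely among non-metastatic tumours, from 4.74 in replicate 2 to 8.07 in replicate 1. SC5D, a sterol desaturase, differed by -0.61 (interval -1.31 to 0.08) and EBP, a sterol isomerase, by -0.28 (interval -0.57 to 0.01). The sterol reductases DHCR7 and TM7SF2 differed by 0.17 (interval -0.15 to 0.48) and 0.06 (interval -0.21 to 0.33). The other probe set of TM7SF2 differed by -0.05, and by -0.22 within the samples with spike-in signal. Within the samples with spike-in signal HSD17B7, SC5D, EBP, DHCR7 and TM7SF2 differed by -0.83, -0.60, -0.10, 0.05 and -0.03. Of these 5 genes the metastatic mean was thus numerically below the non-metastatic one in 3, and none of these differences passed.

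**Figure D2:**
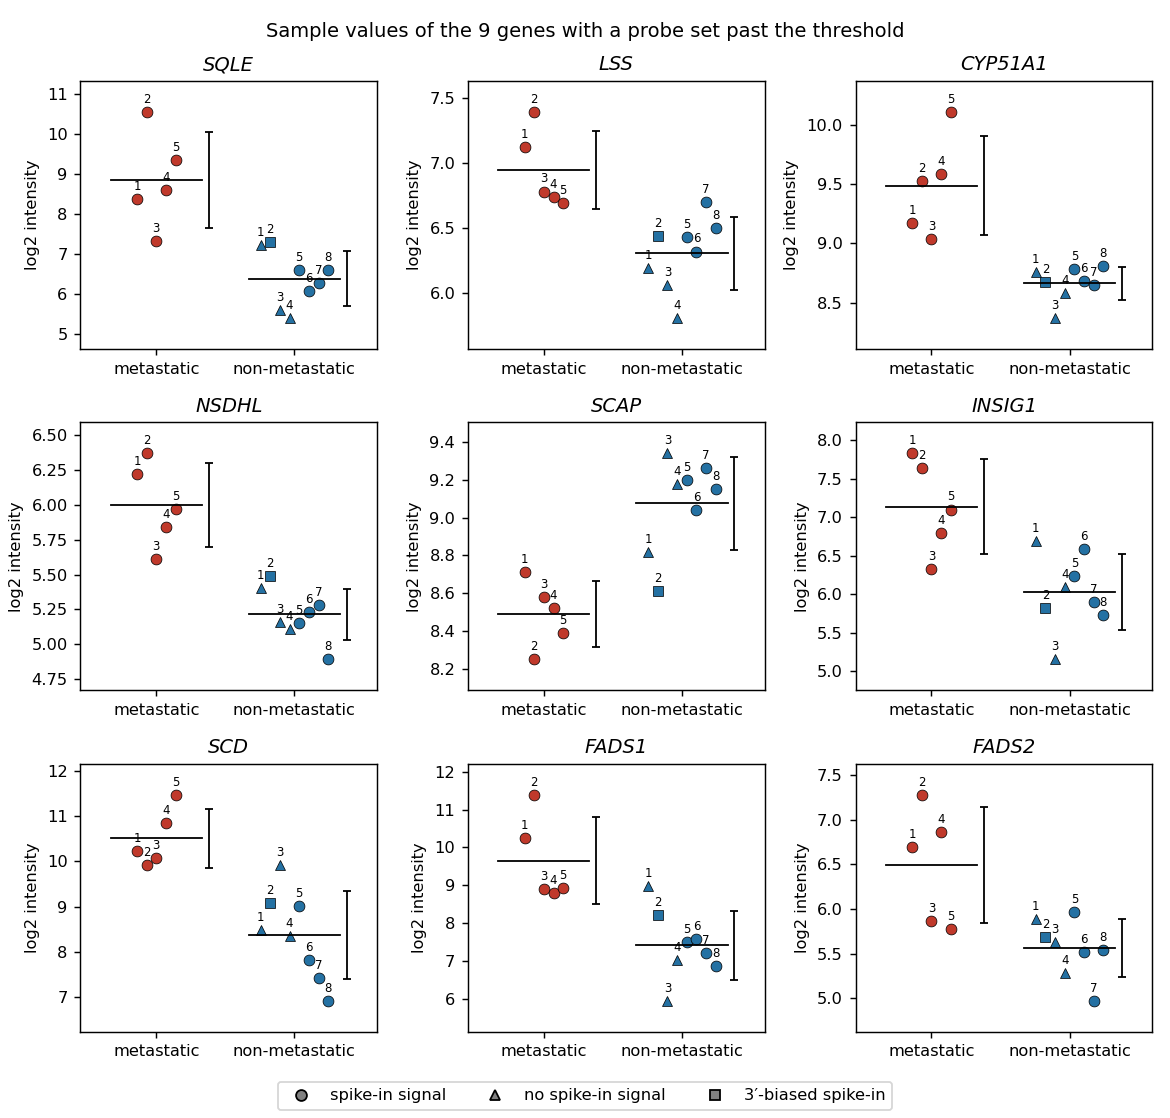
Log2 intensity (vertical axis) in every sample for the 9 genes with a probe set past the threshold, at the passing probe set of highest mean, with replicate numbers beside the points, group means as lines and SD as bars to their right. Metastatic samples (red) lie above every non-metastatic sample (blue) in SQLE, CYP51A1 and NSDHL, and in FADS1 metastatic replicates 1 and 2 stand at 10.24 and 11.39.

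Among the proteins that sense and move sterols, 1 of 15 probe sets rose and 1 fell, against 1.56% higher and 3.34% lower over all probe sets. INSIG1, which holds SCAP in the endoplasmic reticulum and is itself a target of SREBP, was 7.83, 7.64, 6.32, 6.80 and 7.10 at its dimmer probe set in metastatic replicates 1 to 5. In non-metastatic tumours it ran from 5.15 to 6.69 with a median of 5.99, so 4 of 5 metastatic samples lay above all of these. This probe set rose by 1.11 ± 0.28 (SE, limma adjusted p = 0.0399), with neither mean above 7.16. It differed by 1.03 within the samples with spike-in signal (adjusted p = 0.12), and 8 of the 13 fits without 1 sample lost the call, with adjusted p from 0.0236 to 0.105. The chosen probe set of INSIG1 differed by 0.29 ± 0.13 (SE, limma adjusted p = 0.189). INSIG2, its relative, differed by -0.68 (interval -1.40 to 0.04) and by -0.88 within the samples with spike-in signal (limma adjusted p = 0.198), with metastatic replicate 2 at 9.45 and replicates 1 and 5 at 7.88 and 8.01.

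SCAP was 8.71, 8.25, 8.58, 8.52 and 8.39 in metastatic replicates 1 to 5, and 8.61 to 9.34 with a median of 9.16 in non-metastatic tumours. Non-metastatic replicate 2, at 8.61, was the only one below metastatic replicate 1. SCAP fell by 0.58 at this probe set (SE 0.14, limma adjusted p = 0.0306), and within the samples with spike-in signal it fell by 0.67 without overlap (adjusted p = 0.0183). Over 13 samples 8 of the 13 fits without 1 sample lost this call, with adjusted p from 0.00575 to 0.0767 (limma). Its other probe set went the opposite way, at 0.51 over all samples and 0.19 within those with spike-in signal (limma adjusted p = 0.136 and 0.375). At that probe set non-metastatic samples with spike-in signal exceeded those without by 0.79.

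SREBF2, which encodes the SREBP that favours cholesterol genes, was 8.01, 8.64, 7.91, 7.85 and 7.94 in metastatic tumours and 6.17 to 7.78 with a median of 7.58 in non-metastatic ones. The groups did not overlap, but the difference of 0.78 ± 0.28 (SE) did not pass (limma adjusted p = 0.116). At this probe set the non-metastatic samples without spike-in signal were the lowest, at 7.03, 6.17 and 6.67. Those with signal exceeded them by 1.06 (limma adjusted p = 0.0134), and the group difference within the samples with spike-in signal was 0.39 (adjusted p = 0.243). The other probe sets of SREBF2 went otherwise, at 0.62 and 0.29 over all samples and 0.65 and 0.47 within those with spike-in signal. None of these passed, and no mean at them was above 7.16. There non-metastatic samples with signal minus those without came to -0.08 and -0.415. SREBF1, which encodes the SREBPs of fatty acid and general lipid synthesis, differed by 0.03 (interval -0.18 to 0.24) and by 0.07 within the samples with spike-in signal, and its other probe sets by 0.24 and 0.18. STARD4, a carrier that moves cholesterol between membranes, differed by 0.38 (interval -0.02 to 0.78), by 0.29 within the samples with spike-in signal, and at 3 further probe sets by 0.55 to 0.85, none of which passed. The mRNAs of both SREBP genes therefore gave no call.

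For the supply of acetyl-CoA and the synthesis of the saturated chain 0 of 14 probe sets rose and 0 fell (limma). At an unadjusted p under 0.05, 3 were higher and 2 lower (limma). Over all probe sets 1.56% were called higher and 3.34% lower, so a count of 0 in 14 is near these shares. ACLY, which makes acetyl-CoA from citrate, was 10.50, 10.96, 9.86, 11.01 and 11.61 in metastatic replicates 1 to 5, and 9.96 to 10.46 with a median of 10.21 in non-metastatic tumours. Metastatic replicate 3 was the lowest of all 13 samples and the other 4 were above every non-metastatic sample, so the difference of 0.61 ± 0.23 (SE) did not pass (limma adjusted p = 0.128). Without metastatic replicate 3 it was 0.85 and passed (limma adjusted p = 0.0265), and within the samples with spike-in signal it was 0.53 and did not (adjusted p = 0.367). ACACA, the carboxylase that makes malonyl-CoA, differed by -0.58 (interval -1.01 to -0.14, limma adjusted p = 0.112), and passed without non-metastatic replicate 2, at -0.70 (adjusted p = 0.017). It was -0.61 within the samples with spike-in signal (limma adjusted p = 0.122). Of its 4 other probe sets, 3 were negative and 1 was at 0.04.

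FASN, the fatty acid synthase, differed by 0.23 (interval -0.34 to 0.79) and by -0.01 within the samples with spike-in signal, and its 4 probe sets stayed between 0.10 and 0.23 over all samples. Its values in metastatic replicates 2 and 5, 10.37 and 10.06, were above all non-metastatic ones, while metastatic replicate 3, at 8.69, was below all of them. ACSS2, which makes acetyl-CoA from acetate, differed by -0.11 (interval -0.32 to 0.11) and by -0.10 within the samples with spike-in signal. The intervals of FASN and ACSS2 leave out a rise of 2.13, as fitted for the brightest probe set of SCD, but that of FASN holds the 0.68 of a second SCD probe set.

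The fatty acid desaturases SCD and FADS1 held the other large differences. In the elongation and desaturation steps 5 of 12 probe sets rose and 0 fell, against 1.56% higher and 3.34% lower over all probe sets. The median difference of the 5 genes was 0.50. SCD, which places the first double bond in saturated chains, was 10.22, 9.92, 10.07, 10.85 and 11.47 in metastatic replicates 1 to 5, and 6.92 to 9.93 with a median of 8.43 in non-metastatic tumours. Non-metastatic replicate 3 reached the level of metastatic replicate 2, and replicates 6, 7 and 8 were the lowest at 7.82, 7.43 and 6.92. SCD rose by 2.13 ± 0.44 (SE, limma adjusted p = 0.0177) over all samples. Within those with spike-in signal the groups did not overlap and the rise was 2.71 ± 0.45 (SE, limma adjusted p = 0.0184). A second probe set was without overlap over all 13 samples and rose by 0.68 ± 0.16 (SE, limma adjusted p = 0.0263), and the third differed by 0.72 (adjusted p = 0.0769). The second lost its call within the samples with spike-in signal (0.61, adjusted p = 0.0581), and without metastatic replicate 1 or 5. Without metastatic replicate 5, which had the highest mean level of the muscle list (9.11) and of the adipocyte list (8.02) among all samples, the first probe set differed by 1.89 and did not pass (limma adjusted p = 0.0514). The part of these markers in the SCD difference was not tested.

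FADS1 adds a double bond in the making of long polyunsaturated chains. Its brightest probe set differed by 0.50 ± 0.14 (SE, limma adjusted p = 0.057), with 4 of 5 metastatic samples above all non-metastatic ones. The other probe sets rose by 2.24 ± 0.51 and 2.38 ± 0.53 (SE; limma adjusted p = 0.0252 and 0.023), and within the samples with spike-in signal by 2.37 and 2.64 without overlap (adjusted p = 0.0495 and 0.0428). With the spike-in class as a block neither passed (limma adjusted p = 0.0643 and 0.0531). At the brighter of these, metastatic replicates 1 to 5 read 10.24, 11.39, 8.90, 8.79 and 8.93, and non-metastatic tumours 5.94 to 8.98 with a median of 7.34. Metastatic replicates 1 and 2 were above all others, and replicates 3, 4 and 5 were level with non-metastatic replicate 1 at 8.98 and above the rest of that group. Without metastatic replicate 1 neither of these probe sets passed, and the brighter of them did not pass without metastatic replicate 2 or non-metastatic replicate 4 either. The difference at the brighter one was between 1.81 and 2.47 over the 13 fits without 1 sample, with adjusted p up to 0.0692 (limma).

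FADS2 acts on the same polyunsaturated chains at an earlier step. It was 6.69, 7.28, 5.86, 6.86 and 5.78 in metastatic replicates 1 to 5, and 4.97 to 5.97 with a median of 5.58 in non-metastatic tumours. Metastatic replicates 1, 2 and 4 were above the non-metastatic range and replicates 3 and 5 inside it. Neither FADS2 mean was above 7.16, so the size of its difference is not exact. FADS2 rose by 0.93 ± 0.25 (SE, limma adjusted p = 0.0474), differed by 0.99 within the samples with spike-in signal (adjusted p = 0.148), and its call was lost when any 1 of 10 of the 13 samples was left out, with adjusted p up to 0.109. The elongases ELOVL6 and ELOVL5 differed by 0.49 (interval -0.15 to 1.13) and 0.07 (interval -0.31 to 0.45). Within the samples with spike-in signal they differed by 0.31 and -0.21, and neither passed. Of the other probe sets of ELOVL5 1 was negative over all samples, at -0.08 (limma adjusted p = 0.887).

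The metastatic tumours were not alike in these genes. Metastatic replicate 2 was the highest of its group in 14 of the 31 genes and replicate 1 in 9, while replicate 3 was the lowest in 13, ties included. Of the 13 probe sets that rose, metastatic replicate 2 was the highest in 8, replicate 5 in 4 and replicate 1 in 1, and replicate 3 was the lowest in 7. In the mean of gene-centred log2 values, the mevalonate genes were at 0.47 and 0.51 in metastatic replicates 1 and 2 and between -0.15 and 0.01 in the other 3. The squalene and sterol genes were at 0.42 and 0.66 in the same replicates, at 0.14 in replicate 5, 0.01 in replicate 4 and -0.18 in replicate 3.

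The mean of the elongation and desaturation genes lay otherwise. It was positive in all 5 metastatic tumours (0.30 to 0.71, the highest in replicate 5) and between -0.64 and 0.15 in non-metastatic ones. SCD, with the widest range of these 5 genes (6.92 to 11.47), weighs most in this mean. Each metastatic tumour was above the non-metastatic range in only 2 or 3 of the 5 genes. Non-metastatic replicate 1 was the highest of the 8 in HMGCS1 (10.37), MVK, FDPS (10.18) and FDFT1 (8.02), but the lowest in PMVK (8.85) and inside the range in MVD (7.64). These means describe the samples and were not tested, since the genes were chosen with results known. In metastatic replicates 1 and 2 the ACTB 3′ minus 5′ value was 1.99 and 2.87 and in replicate 3 it was 1.40, the lowest of the group, and its part in this order was not tested. With that value as a covariate 10 of the 73 member probe sets rose and 1 fell (limma). Over all 42924 probe sets 410 rose and 957 fell in that fit.

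**Figure D3:**
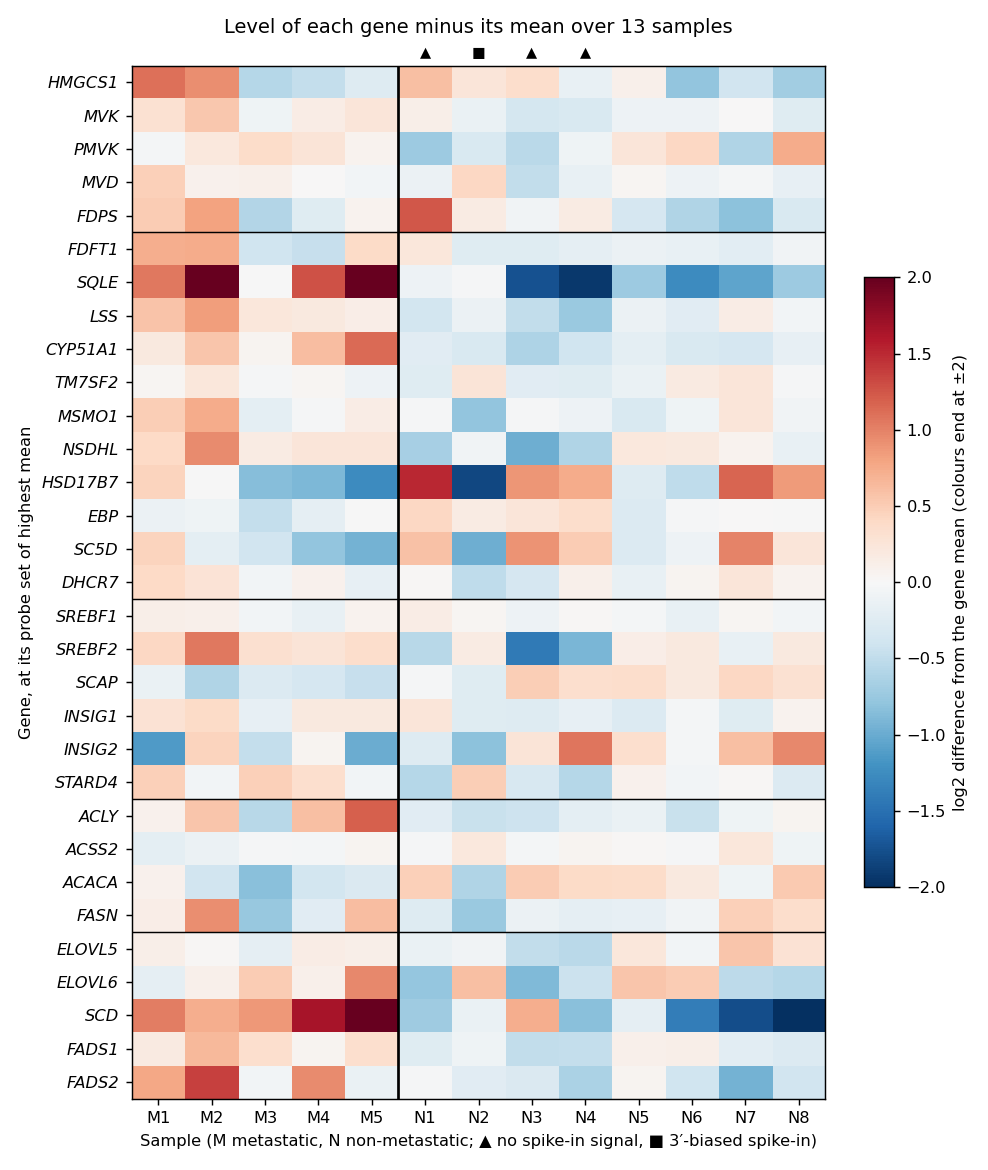
Level of each of the 31 genes in each of the 13 samples as the log2 difference from the gene's mean over all samples (colour scale ending at ±2), with lines between the steps of the pathway. SCD is red in all 5 metastatic samples and SQLE in all but replicate 3, HMGCS1 and FDPS are most red in metastatic replicates 1 and 2 and non-metastatic replicate 1, and SCAP is blue in all 5 metastatic samples.

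**Figure D4:**
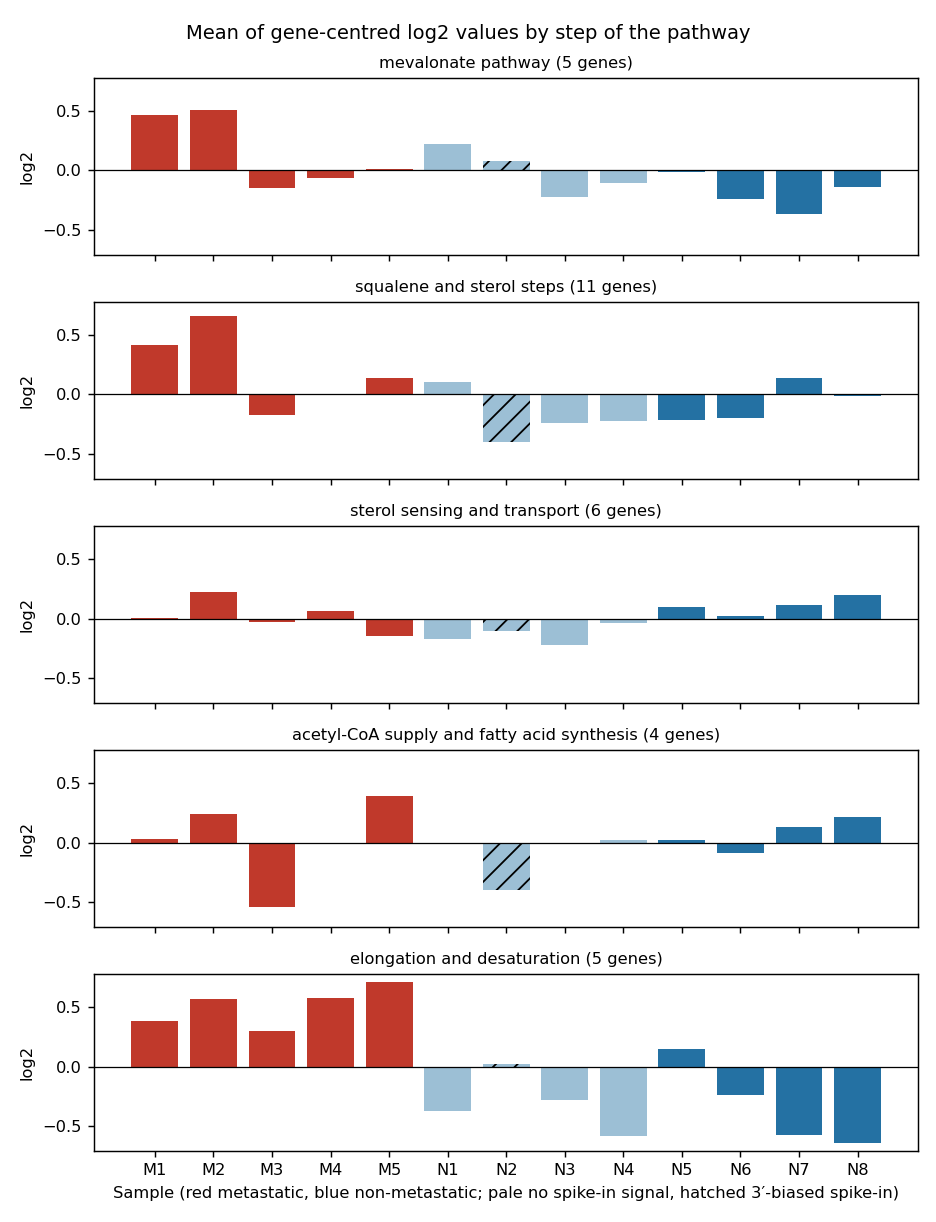
Mean of gene-centred log2 values (vertical axis) in each sample for the 5 steps of the pathway. Bars of the elongation and desaturation genes, a mean in which SCD weighs most, are above 0 in all 5 metastatic samples, at 0.30 to 0.71. Those of the mevalonate genes reach 0.47 and 0.51 only in metastatic replicates 1 and 2.

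Other lipid genes were taken from 5 lists. Of their 98 measured genes 1 rose and 6 fell, with a median difference of -0.01, against 1.65% higher and 3.70% lower over all named genes. In uptake, storage and efflux of sterols 1 of 18 rose and 3 fell. VLDLR, a receptor for lipoproteins, was higher by 1.28 ± 0.33 (SE; adjusted p from limma, 0.0413) with neither mean above 7.16. CYP27A1, a mitochondrial sterol hydroxylase, had a mean of 8.41 ± 0.28 in metastatic tumours (SD, n = 5) against 10.51 ± 0.77 in the others (SD, n = 8). It fell by 2.10 without overlap, and passed within the samples with spike-in signal too (limma adjusted p = 0.00429 and 0.0133), while its other probe set was not called. NPC2, which hands cholesterol out of lysosomes, fell by 0.97 and NR1H2, an oxysterol receptor, by 0.69 (limma adjusted p = 0.0233 and 0.026).

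In the supply, elongation and activation of fatty acids 0 of 24 rose (4 at an unadjusted p under 0.05) and ME1, a malic enzyme that yields NADPH, fell by 1.65 ± 0.44 (SE, limma adjusted p = 0.0468). In fatty acid oxidation 0 of 18 rose (2 at an unadjusted p under 0.05), and HADH and ECHS1, enzymes of the beta-oxidation cycle, fell by 1.00 and 0.79 (limma adjusted p = 0.0153 and 0.0463), although 1 other probe set of ECHS1 had the opposite sign. None of 18 genes of isoprenoid branches and SREBP processing and none of 20 of triglyceride synthesis and lipid droplets passed (limma; 2 and 3 at an unadjusted p under 0.05). The median differences of the 5 lists, in the order uptake, supply, oxidation, isoprenoid and triglyceride, were -0.20, 0.16, -0.02, -0.15 and 0.05. Within the samples with spike-in signal only CYP27A1 and PNPLA2, a triglyceride lipase at -0.77 (limma adjusted p = 0.0144), were called among the 98.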

How the data were processed

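The values are log2 intensities as deposited by the authors in 1 table of 13 arrays. That scale was read from the values (0 to 14.33), and for software, background correction and normalization the sources used here give nothing. Per the labels' protocols, column-purified RNA was biotin-labelled by 1 cycle of 3′ in vitro transcription. Control probe sets (111) were left out. Each of 42924 probe sets was tested for the group, as sole model term, in limma 3.58.1 under R 4.3.3 (lmFit, eBayes). Tests were two-sided, p-values were adjusted by Benjamini-Hochberg across all probe sets, and the threshold was 0.05. Differences are metastatic minus non-metastatic, with SE and 95% intervals from the fit. The script was tested on simulated data. Spike-in signal meant a mean of the 3′ poly-A probe sets above 6, and 3′ bias a difference from the 5′ probe sets of 2 or more. Symbols came from the platform annotation (1 symbol for 29264 probe sets, several for 439, none for 13332). RefSeq's table for UU_Cfam_GSD_1.0 held all 31 gene identifiers; no coordinates are given since the array names no build. Number of arrays limits the precision. The members, lists and tests were chosen with earlier results of these data known. Promoter sequences were not analysed here. All members are named; other lipid genes only where they passed, and markers where most abundant or needed for a count. Summaries used Python 3.11.15 with pandas 2.3.3, and plots matplotlib 3.10.9.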

Additional observations from a re-analysis of the deposited data

Results flagged for a closer look

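Within each group every gene was examined, at its chosen probe set, for a highest or lowest sample far from the rest by Dixon's criterion, which chance meets in about 1 of 20 groups. Of 62 combinations of gene and group 2 did. SREBF2 in metastatic replicate 2 was 8.64, and the next metastatic sample was 8.01. FDFT1 in non-metastatic replicate 1 was 8.02, and the next non-metastatic sample was 7.73.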

How the results depend on the processing

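The count of 14 called member probe sets was 9 among the 47 at or above the median level. It was 6 with the spike-in class as a block, 7 with only the samples with spike-in signal and 1 without the 3 samples lacking it (chosen after seeing the data). The count stayed within 1.5 times under quantile normalization, a variance trend, array weights and the ACTB covariate. The 6 member genes became 3 with the spike-in class as a block, 3 with only the samples with spike-in signal and 0 without the 3 samples (limma; 10 of the 31 at an unadjusted p under 0.05 for the 0). The 7 other lipid genes became 3, 2 and 1 under the same settings in that order, and 4 with the ACTB covariate. All called probe sets, 2104, became 4011 with array weights, 1367 with the ACTB covariate, 1192 with only the samples with spike-in signal and 207 without the 3 samples. Leaving out each sample in turn gave 856 to 4478 probe sets, 8 to 19 member probe sets, 3 to 8 member genes and 2 to 14 other lipid genes, and 0 to 9 member probe sets within the samples with spike-in signal. Over all 13 samples the highest of each came without non-metastatic replicate 2, and the lowest of probe sets and member probe sets without metastatic replicate 1.

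The groups share replicate numbers, but same-numbered samples did not deviate together (correlations -0.01 to 0.08), and 1 of 5 metastatic samples, replicate 2, correlated best with its own number. With the replicate block 733 probe sets, 6 member probe sets, 1 member gene and 4 other lipid genes were called.

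Among the genes that passed none changed sign, but they lost their call in 30 of 78 fits without 1 sample. They also lost it in 21 of 58 fits under other settings. SCAP was -0.0387 as the mean of its probe sets (limma adjusted p = 0.878). Of the genes that did not pass, HMGCS1 turned to -0.082 and FDPS to -0.12 with the replicate block. HMGCS1 ranged from -0.0013 (without metastatic replicate 1) to 0.42 with 1 sample left out. PMVK was -0.026 with the spike-in class as a block or only samples with spike-in signal and -0.14 as the mean of its probe sets. Both spike-in settings give the same difference by construction, so their equal values are not separate evidence. TM7SF2 was -0.026 with the ACTB covariate, -0.033 in both spike-in settings and -0.07 without the 3 samples. FASN was -0.0497 with array weights and -0.011 in both spike-in settings. ELOVL5 was -0.0909, -0.21 and -0.21 in the same order, -0.14 without the 3 samples and from -0.0006 (without non-metastatic replicate 4) to 0.16 with 1 sample left out. The cause of these changes was not tested. Without the 3 samples SQLE differed by 2.27 and SCD by 2.46 (limma adjusted p = 0.0822 and 0.0527). Low signal over background limits the dim probe sets, since values up to 7.16 occur without a target.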
